A study of Mus musculus with 13 samples.

Results

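Chemokines and chemokine receptors were followed through 2 days and nights in the back skin of mice. The genes were taken by their symbols. Ligands were those with a symbol of Ccl, Cxcl, Cx3cl or Xcl and a number, and receptors those of Ccr, Cxcr, Cx3cr, Xcr or Ackr and a number. Chemokines under other symbols, such as Pf4 and Ppbp, were not taken. A gene needed a probe annotated with its symbol alone, and the probe of highest mean stood for a gene that had several. This gave 56 genes, 34 ligands and 22 receptors, of 19938 genes measured with a symbol of their own. The mice were C57Bl6 males on postnatal day 30, whose follicles were in anagen, when hair grows, and the whole skin of the back was taken. The mice were kept in 12 h of light and 12 h of dark and fed a standard chow freely. One array was run per time point from ZT2 to ZT50 in 4 h steps, where ZT counts hours from lights on. Each array held the pooled RNA of 3 mice, so 6 pools came from the dark (ZT14, ZT18, ZT22, ZT38, ZT42 and ZT46) and 7 from the light (ZT2, ZT6, ZT10, ZT26, ZT30, ZT34 and ZT50).

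Chemokines are small secreted proteins that draw leukocytes along a gradient. They act through receptors coupled to G proteins on the responding cell, and the atypical receptors of the Ackr family bind chemokines without that signalling and scavenge or transport them. In skin, keratinocytes, fibroblasts, endothelium and resident leukocytes all make chemokines, and the receptors mark the T cells, dendritic cells, macrophages and granulocytes that enter or live there. Whole skin mixes these sources, so a smaller number of cells of a type and less RNA per cell cannot be told apart.

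The 13 arrays had median intensities of 440.0 to 483.2, and pools correlated at 0.978 to 0.996 over probes. Markers of the labelled tissue were bright, with means of 14618 for Krt5, 9698 for Krt14 and 14559 for Col1a1. Of the 56 genes, 44 lay above a floor at the lower quartile of all probes (7.61 on the log2 scale, an intensity of 179.9) and were tested, 29 ligands and 15 receptors. The 12 below it averaged between 63.3, for Cxcr5, and 166.9, for the epithelial ligand Ccl28. They were the ligands Ccl3, Ccl12, Ccl28, Cxcl2 and Cxcl15 and the receptors Ccr1, Ccr1l1, Ccr3, Ccr6, Ccr8, Cxcr2 and Cxcr5. Of these, Ccr3, Cxcr2 and Cxcr5 are chemokine receptors of eosinophils, neutrophils and B cells. Cxcr1, another receptor of neutrophils, was above the floor (304.8). So were 5 of 9 listed neutrophil markers and 2 of 4 listed B cell markers. Just inside the floor stood Ccr9 (194.3) and Ccl24 (199.96), and just outside it Ccl28 (166.9) and Ccl3 (158.1).

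Among ligands taken by symbol, the 6 brightest probes were of a skin epithelial chemokine, a stromal one and 4 chemokines of myeloid cells and lymphoid attraction. Intensities of different probes are not comparable as amounts, so each gene is described against itself. Cxcl14, made constitutively by epithelium, averaged 3215 ± 269.6 (SD over 13 pools). Cxcl12, the stromal ligand of Cxcr4, averaged 1853 ± 92.5 and had the smallest SD on the log2 scale of the 44 genes, 0.07. From ZT2 to ZT50 the Cxcl12 intensities were 1915, 1881, 1739.9, 1633, 1823, 1928, 1783, 1896, 1984, 1883, 1839, 1866 and 1923. The ZT14 pool was the lowest and ZT10 the next, and the fitted wave of Cxcl12 was 1.06-fold (limma adjusted p = 0.792).

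The most variable genes on the log2 scale were Ccl8, which in mice acts through Ccr8, and Cxcl13, which draws B cells through Cxcr5, each with an SD of 0.28 log2 over the pools. Ccl8 measured 1104, 1533, 1663, 1307, 1428, 1789, 2269, 2027, 1764, 1529, 1633, 1962 and 1861 from ZT2 to ZT50. The ZT2 pool was lowest and the ZT26 pool, taken at the same hour a day later, was highest. Cxcl13 measured 963, 1246, 1212, 1059.7, 1558, 1363, 1627, 1448, 841, 1339, 1526, 1413 and 1102, lowest at ZT34 and highest at ZT26. The 3 pools taken 2 h after lights on averaged 1744 ± 591 for Ccl8 and 1231 ± 350.1 for Cxcl13 (SD, n = 3), while the Cxcl13 pools of 18 h lay close, at 1542 ± 22.7 (SD, n = 2), and the Ccl8 pools of 10 h at 1714 ± 71.6 (SD, n = 2). Neither gene followed a 24 h wave past the threshold (Ccl8 1.25-fold, limma adjusted p = 0.610, and Cxcl13 1.29-fold, limma adjusted p = 0.684). Ccl6 and Ccl9, chemokines of mouse myeloid cells, were steadier. Ccl6 measured 1116, 1048, 1234, 1201, 1231, 1220.2, 1287, 1265, 1035, 1032, 1451, 1168 and 930.0, and Ccl9 measured 886, 904, 1104, 1207, 1047, 1081, 1137, 1119, 974, 1002, 1207, 1099 and 863. Both were lowest in the last pool, ZT50, and their fitted waves were 1.16- and 1.17-fold with peaks in the dark at 18.8 h and 16.4 h.

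**Figure D1:**
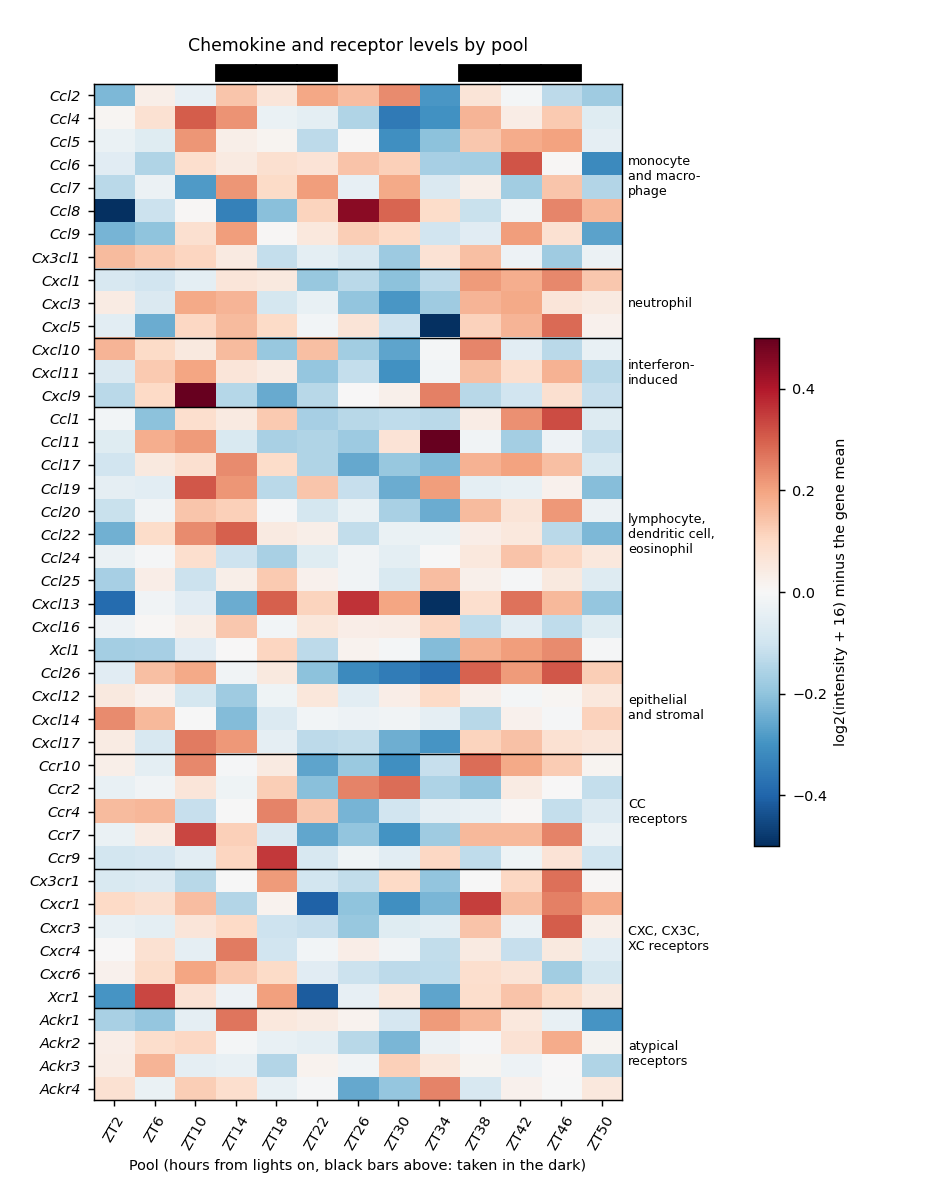
Each row is 1 of the 44 chemokine ligands and receptors above the intensity floor, grouped by role, and each column is 1 pool from ZT2 to ZT50. Colour gives the log2 value minus the gene's mean over 13 pools, with the scale ending at 0.5 in either direction. Many rows are below their mean together at ZT26, ZT30 and ZT34, and above it at ZT38, ZT42 and ZT46.

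None of the 44 genes followed a 24 h wave past the threshold of an adjusted p of 0.05, in a limma fit of cosine and sine terms plus linear time over all 16322 genes tested, of which 23 (0.141%) passed. The smallest adjusted p among the chemokine genes was 0.339, for Ccl11. At an unadjusted p under 0.05 stood 9 of the 44 (20.5%), against 9.54% of all genes tested. The size of this excess depended on the filter, since with no intensity floor the shares were 10.7% of 56 chemokine genes and 9.05% of all genes. The 9 genes were 7 of 29 ligands (Ccl11, Ccl22, Ccl17, Cxcl14, Cxcl9, Ccl1 and Cxcl5) and 2 of 15 receptors (Ackr1 and Cxcr6). The median fitted peak-to-trough fold was 1.16 in the chemokine genes (range 1.02 to 1.38) and 1.09 over all genes tested. The chemokine genes also varied more around the wave, with a median residual SD of 0.14 log2 against 0.11 over all genes. The 95% upper bound of the amplitude had a median of 0.22 log2 and lay between 0.10 and 0.40. Fitted peaks fell in the dark for 33 of the 44 (54.2% of all genes tested) and in the light for 11.

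Among chemokines of lymphocytes, dendritic cells and eosinophils, 4 of the 11 tested had an unadjusted p under 0.05. Ccl11, eotaxin, which draws eosinophils through Ccr3, measured 653, 775, 793, 646, 608, 614, 599, 717, 972, 673, 605, 670.2 and 627 from ZT2 to ZT50. The pools at 6 and 10 h after lights on were the highest on both days. The 18 h pools averaged 606 ± 1.94 and the 10 h pools 883 ± 127 (SD, n = 2 each). The fit placed its peak late in the light, at 9.0 ± 0.8 h after lights on (amplitude 0.23 ± 0.05 log2 (SE), a 1.38-fold wave, limma adjusted p = 0.339). Ccl22, a ligand of Ccr4 made by dendritic cells and macrophages, measured 199, 255, 283, 296, 246, 244, 217, 232, 232, 244, 248, 215 and 201. Its lowest values were the 3 pools taken 2 h after lights on together with ZT46, and its highest was ZT14, with a fitted peak at 13.7 ± 1.0 h (amplitude 0.16 ± 0.04 log2 (SE), a 1.25-fold wave, limma adjusted p = 0.364). Ccl17, the other Ccr4 ligand, measured 210.4, 234, 240.1, 269, 242, 202, 187, 196, 192, 257, 263, 252 and 214. Pools of the same hour disagreed in this gene, since ZT10 was above ZT34 and ZT22 below ZT46 (amplitude 0.17 ± 0.05 log2 (SE), a 1.26-fold wave, limma adjusted p = 0.470, peak 16.1 ± 1.2 h). Ccl1, a ligand of Ccr8, measured 286, 249, 308, 299, 319, 256, 261, 263, 262, 297, 342, 367 and 276 and was highest at ZT46, with a fitted peak at 17.8 h (amplitude 0.14 ± 0.05 log2 (SE), a 1.22-fold wave, limma adjusted p = 0.519).

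The remaining ligand groups held 1 such gene each or none. Cxcl14 measured 3773, 3592, 3204, 2756, 3053, 3173, 3149, 3167, 3109.7, 2906, 3251, 3195 and 3469, with its highest pool at ZT2 and its lowest at ZT14, and the fitted peak came early in the light at 2.5 ± 1.3 h (amplitude 0.12 ± 0.04 log2 (SE), a 1.17-fold wave, limma adjusted p = 0.484). Cxcl9, an interferon-induced ligand of Cxcr3, measured 312, 369, 512, 309.5, 286, 310.0, 344, 349, 412, 311, 319.9, 364 and 315. Its 10 h pools, ZT10 and ZT34, were its highest, as for Ccl11, and the fitted peak was at 8.5 ± 1.2 h (amplitude 0.20 ± 0.07 log2 (SE), a 1.32-fold wave, limma adjusted p = 0.511). The other interferon-induced ligands, Cxcl10 and Cxcl11, had fitted peaks in the dark at 14.7 and 14.7 h and unadjusted p above 0.05. Of the 8 chemokines of monocytes and macrophages tested, 0 had an unadjusted p under 0.05 for the wave. Of the 3 neutrophil chemokines, only Cxcl5 did, with a 1.33-fold wave peaking at 19.5 h (limma adjusted p = 0.521). Of the genes with several probes, Ccl19, which guides dendritic cells and T cells through Ccr7, had 5 probes with fitted peaks between 13.6 and 13.8 h, of which 2 hold identical values and count as 1. Ccl25 had 2, with fitted peaks at 15.3 and 20.05 h but small amplitudes of 0.06 and 0.02 log2. The first of these peaks had an SE of 2.5 h.

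**Figure D2:**
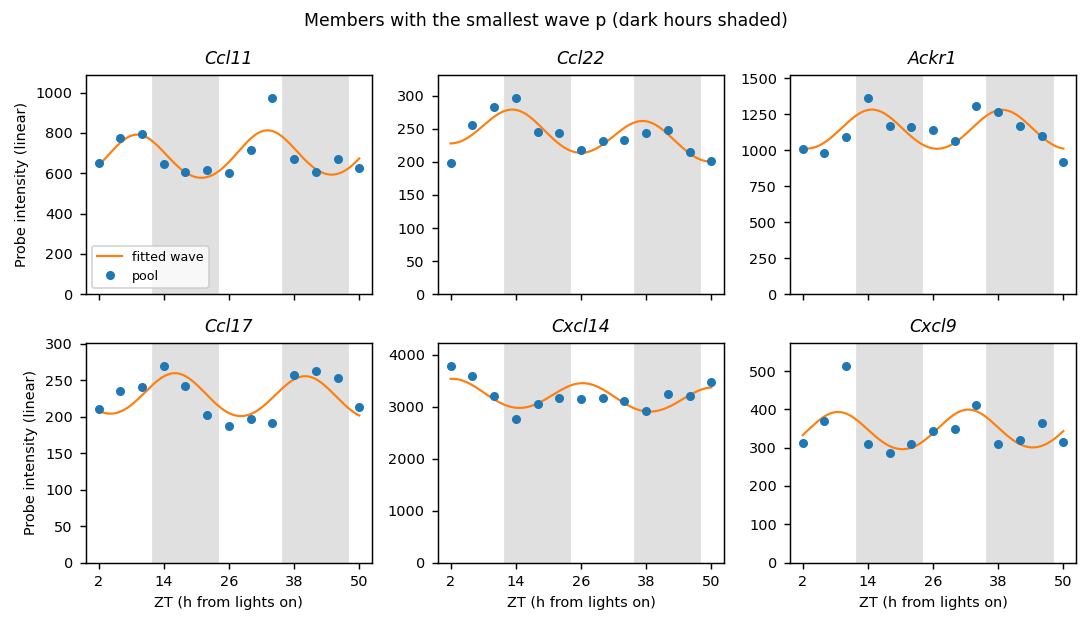
Intensity of the 6 genes of smallest wave p, with 1 point per pool against hours from ZT2 to ZT50, dark periods shaded, and the fitted 24 h wave with linear time as a line. Ccl11 and Cxcl9 have their highest points at 10 h after lights on, and Ccl22 and Ackr1 have theirs at ZT14.

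Among receptors, the atypical receptor Ackr1, which binds many inflammatory chemokines on the venules where leukocytes leave the blood, came closest. It measured 1005, 984, 1092, 1362, 1171, 1162, 1142, 1064, 1310.2, 1268, 1171, 1100.0 and 917 from ZT2 to ZT50. The 14 h pools averaged 1315 ± 66.6 and the 2 h pools 1021 ± 114 (SD, n = 2 and n = 3), and the fitted peak fell just after lights off, at 14.7 ± 1.1 h (amplitude 0.17 ± 0.04 log2 (SE), a 1.26-fold wave, limma adjusted p = 0.393). Ackr3, which scavenges Cxcl12, measured 842, 924, 793, 799, 739, 830.0, 808, 892, 853, 826, 805, 819.9 and 736, and its wave was 1.09-fold (limma adjusted p = 0.729). Ackr4, which scavenges Ccl19 and Ccl25, measured 708, 656, 731, 712, 653, 669, 559, 585, 799.9, 634, 681, 671 and 697, and its wave was 1.09-fold (limma adjusted p = 0.801). Ackr3 was highest at ZT6 and ZT30, both 6 h after lights on, while Ackr4 had its lowest pool at ZT26 and its highest at ZT34. Endothelial markers (7 of 7 above the floor), blood and lymphatic together, summed to 5553 to 6238 in dark pools and 5133 to 6041 in light pools. The sum was highest at ZT14, as for Ackr1, and lowest at ZT10. One of the 7, the lymphatic marker Lyve1, was called for the wave (1.65-fold, limma adjusted p = 0.0173, peak 15.9 h). Of the 7 markers, 3 were higher and 4 lower in the dark, with Lyve1 at 0.46 log2 and Cdh5 and Tek at -0.13 and -0.14 log2. The part of endothelial content in the Ackr1 values was not tested.

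The classical receptors of highest intensity moved by similarly small amounts. Ccr4, the receptor of Ccl17 and Ccl22 on skin-homing T cells, measured 755, 759.9, 621, 673, 804, 743, 572, 631, 654, 658, 677, 619.6 and 642. Ccr10, another receptor of skin-homing T cells, measured 582, 549, 674, 567, 588, 471, 499, 457, 524, 694, 652, 624 and 575. Ccr4 was lowest at ZT26 and Ccr10 at ZT30, and neither wave passed (Ccr4 1.14-fold, limma adjusted p = 0.655, and Ccr10 1.19-fold, limma adjusted p = 0.605). Cxcr4, the receptor of Cxcl12, measured 575, 607, 557, 691, 537, 569, 588, 567, 527, 594, 529, 596 and 554 and had the flattest fit of the 44, a 1.02-fold wave whose 95% upper bound of the amplitude was 0.10 log2. Its highest pool was ZT14, the pool in which Cxcl12 was lowest. Cxcr6, the receptor of Cxcl16 on T cells, measured 354, 372, 402, 383, 374, 334, 323, 317, 318, 370.0, 365, 307 and 327, with a 1.14-fold wave peaking at 14.7 h (limma adjusted p = 0.515). Of the 5 CC receptors tested, 0 had an unadjusted p under 0.05 for the wave, and of the 6 CXC, CX3C and XC receptors only Cxcr6 did.

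**Figure D3:**
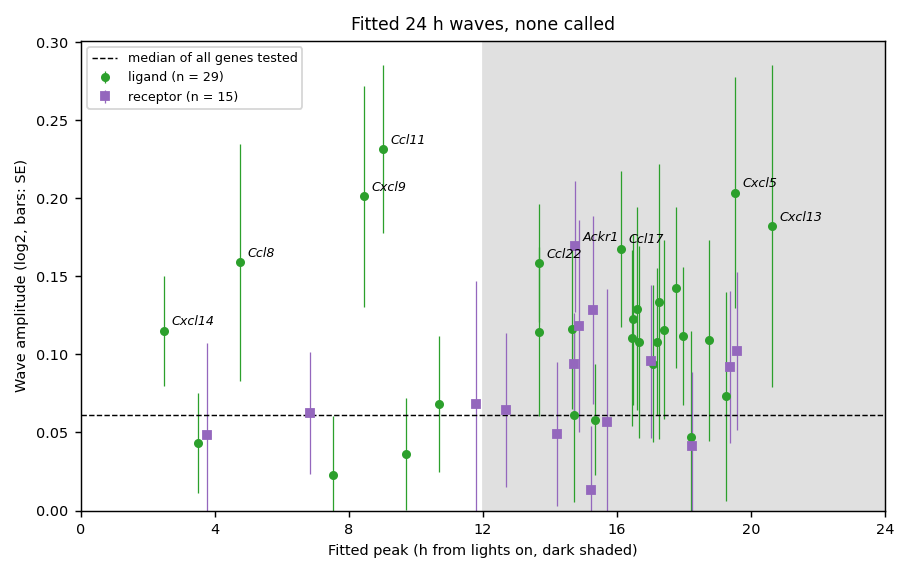
Fitted amplitude in log2 against the fitted hour of the peak for the 44 chemokine genes tested, ligands and receptors marked apart. Peaks of 33 genes fall in the dark and of 11 in the light, and the largest amplitude is that of Ccl11 at 9.0 h.

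Set against the light, the dark pools had higher values of 33 of the 44 chemokine genes and lower values of 11, without 1 gene passing the adjusted threshold. Over all 16322 genes tested 1 gene passed (0.00613%), and 55.6% were higher in the dark. The median difference, dark minus light, was 0.11 log2 in the chemokine genes and 0.01 log2 over all genes. In 7 chemokine genes the unadjusted p was under 0.05, all higher in the dark, against 7.56% of all genes higher and 4.87% lower at that p. That count was 3 without ZT6, 4 without ZT14, 13 without ZT22 and 14 without ZT10. By role, the values were higher in the dark for 6 of 8 monocyte and macrophage chemokines, 8 of 11 chemokines of lymphocytes, dendritic cells and eosinophils, 2 of 3 interferon-induced ligands, 2 of 4 epithelial and stromal ones, 4 of 5 CC receptors, 6 of 6 CXC, CX3C and XC receptors and 2 of 4 atypical receptors (Ackr1 and Ackr2). All of these genes share the same 13 arrays, so their differences are not independent of each other.

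The 7 genes, named because of these p-values, were mostly ligands that draw neutrophils, T cells or dendritic cells. Ccl17 measured 202, 255 and 269 (lowest, median and highest) in the 6 dark pools, against 187, 210.4 and 240.1 in the 7 light pools, with overlapping ranges and a difference of 0.23 ± 0.07 log2 (SE) (limma adjusted p = 0.353). Xcl1, which draws cross-presenting dendritic cells through Xcr1, measured 348, 424 and 454 (lowest, median and highest) in the 6 dark pools, against 327, 368 and 388 in the 7 light pools, a difference of 0.15 ± 0.06 log2 (SE) (limma adjusted p = 0.362). Cxcl5, a neutrophil attractant of epithelium, measured 234, 262 and 291 (lowest, median and highest) in the 6 dark pools, against 151, 227 and 255 in the 7 light pools, a difference of 0.25 ± 0.10 log2 (SE) (limma adjusted p = 0.372). The low end of its light range was the ZT34 pool. Cxcl1, a neutrophil attractant that acts through Cxcr2, measured 644, 804 and 874 (lowest, median and highest) in the 6 dark pools, against 638, 689 and 810.3 in the 7 light pools, a difference of 0.14 ± 0.07 log2 (SE) (limma adjusted p = 0.402). All 3 neutrophil chemokines tested, Cxcl1, Cxcl3 and Cxcl5, had positive differences, none past the adjusted threshold. Ccl1, Ccl20 and Ackr1 completed the 7, with differences of 0.17, 0.14 and 0.18 log2. Cxcl9, Ccl8, Ccl11 and Cxcl14 had the most negative differences, -0.21, -0.19, -0.19 and -0.13 log2, and none of these had an unadjusted p under 0.05.

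The share of genes higher in the dark, and the size of the differences, depended on the scaling of the arrays. With quantile normalization 68.2% of the 44 chemokine genes and 49.0% of all genes were higher in the dark, and with each array centred on its median 72.7% and 37.3%. The median difference of the chemokine genes was 0.06 log2 with quantile normalization and 0.07 log2 with median centring, against 0.11 log2 as deposited. With quantile normalization the difference was 0.15 log2 for Ccl17, 0.17 for Cxcl5, 0.11 for Ccl1, 0.10 for Xcl1, 0.08 for Ccl20, 0.12 for Cxcl1 and 0.19 for Ackr1. With no intensity floor, 44 of the 56 chemokine genes (78.6%) were higher in the dark, against 61.0% of all genes.

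**Figure D4:**
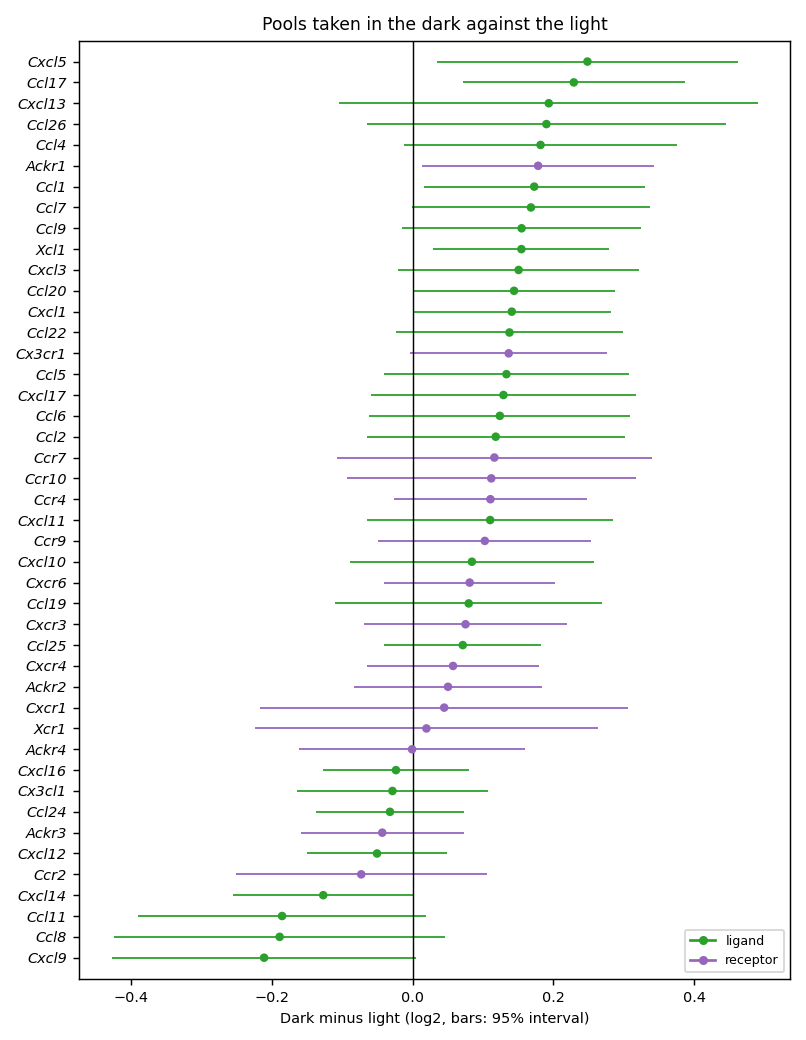
Dark minus light difference in log2 for each of the 44 chemokine genes tested, with bars giving the 95% interval of the limma fit. Most points lie above 0, and the intervals of 7 genes exclude 0 before adjustment.

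At some hours, in the dark and in the light, the pools of the chemokine genes did not behave alike on the 2 days. At ZT10 30 of the 44 genes were above their own mean over the 13 pools, and at ZT34, the same hour a day later, 12 were. The 22 h pools differed the other way, with 15 genes above their mean at ZT22 and 33 at ZT46. Other hours were closer, with 28 at ZT14 and 30 at ZT38, 24 at ZT18 and 29 at ZT42, and 15, 12 and 16 at ZT2, ZT26 and ZT50. Counts from ZT2 to ZT50 were 15, 22, 30, 28, 24, 15, 12, 14, 12, 30, 29, 33 and 16. The high pools were ZT10, ZT14, ZT38, ZT42 and ZT46, and in the pools at ZT2, ZT22, ZT26, ZT30, ZT34 and ZT50 at most 16 genes were above their mean. Over all genes tested, the share above their own mean was between 37.8% and 58.7% in any pool, while the counts of chemokine genes are shares of 27.3% or more, up to 33 of 44. Pools 24 h apart differed by a median of 0.17 log2 and pools 12 h apart by 0.20 log2 in the chemokine genes, against 0.13 and 0.13 log2 over all genes.

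The brightness of dim probes moved with these counts. The lower quartile of all probe intensities was 185.5 to 197.8 in the 5 pools where most chemokine genes were high (ZT10, ZT14, ZT38, ZT42 and ZT46) and 162.8 to 183.6 in the other 8, lowest at ZT34 and highest at ZT46. Its part in the result was not tested. Of the 44 chemokine genes, 22 remained with a floor at the median of all probes in place of the lower quartile.

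**Figure D5:**
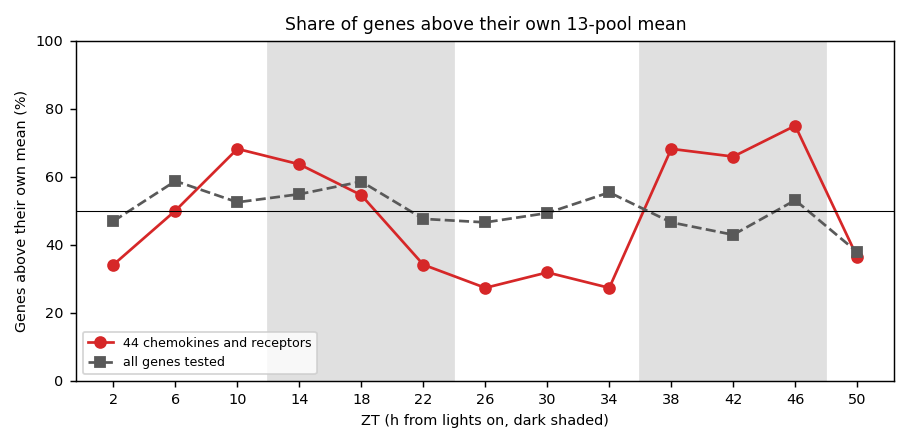
For each pool from ZT2 to ZT50, the percent of the 44 chemokine genes and the percent of all 16322 genes tested that were above their own mean over the 13 pools. The chemokine genes stand highest at ZT46, with 33 of 44 above their mean, and lowest at 27.3% at ZT26 and ZT34, while all genes stay between 37.8% and 58.7%.

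Markers of leukocytes were measured in the same pools. Of the T and NK cell list, 7 of the 13 genes with a probe of their own passed the floor, with summed intensities of 2932 to 3152 in dark pools and 2670 to 3251 in light pools, highest at ZT10 and lowest at ZT30. Of the neutrophil list, 5 of 9 genes passed, with sums of 1791 to 2271 in dark pools and 1730 to 1954 in light pools, highest at ZT38 and lowest at ZT34. The B cell list, with 2 of 4 genes, had sums of 572 to 762 in dark pools and 488 to 764 in light pools, highest at ZT10 and lowest at ZT30. By these sums, the highest pool of the 3 lists was one of the 5 in which most chemokine genes were high. The lowest was ZT30 or ZT34, in which 14 and 12 of the 44 were. A sum is led by its brightest probe, which in the neutrophil list was Camp (mean 1042). With each gene weighted alike, as the mean of log2 values centred on each gene, the neutrophil list was lowest at ZT22 (-0.19). There ZT2 stood at -0.17 and ZT34 at -0.13. Mast cell markers (7 of 8) summed to 7105 to 8827 in dark pools and 6501 to 7908 in light pools, highest at ZT14 and lowest at ZT50. Macrophage and dendritic cell markers (13 of 13) summed to 15210 to 18243 in dark pools and 15897 to 18948 in light pools. This sum was lowest at ZT38, where 30 chemokine genes were above their mean. The next lowest were ZT50 (15897) and ZT2 (15959), where 16 and 15 were. The highest sums were nearly equal, 18948 at ZT26, where 12 genes were above, and 18931 at ZT10, where 30 were. With each gene weighted alike, this list was highest at ZT30 (0.12) and lowest at ZT38 (-0.14). None of these lists held a gene called for the wave or for dark against light. Hepatocyte markers (8 of 9), typical of liver, summed to 3437 to 30935 in dark pools and 3548 to 7088 in light pools, with the highest value at ZT46, a pool in which chemokine genes were high. The part of any of these in the chemokine values was not tested.

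A linear drift over the 2 days, adjusted for the daily wave, passed the threshold in 0 of the 44 genes and in 0% of all genes tested. At an unadjusted p under 0.05 stood Ccl8, with a slope of 0.29 ± 0.09 log2 per 24 h (SE, limma adjusted p = 0.372), and Cxcr6 and Ccr4, chemokine receptors of T cells, with slopes of -0.11 and -0.14 log2 per 24 h. Over all genes 3.22% had such a p with an upward slope and 5.59% with a downward one. Without the ZT2 pool the slope of Ccl8 was 0.13 log2 per 24 h (limma adjusted p = 0.903).

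Ligands and receptors that act on each other were compared over the 13 pools, for 12 of 20 listed pairs with both genes tested. No pair passed Benjamini-Hochberg adjustment over the 12. Ccl25 and Ccr9, named after their values were seen, correlated at a Pearson r of 0.66 (two-sided permutation p = 0.0130, adjusted p = 0.102) and a Spearman rho of 0.55 (permutation p = 0.0524), and r was 0.67 without the 2 pools farthest from the median of Ccl25. Only the brighter of the 2 Ccl25 probes was used here, and Ccr9 (194.3) stood just inside the floor. Cx3cl1, the membrane-bound chemokine of endothelium and epithelium, and its receptor Cx3cr1 correlated negatively, at r = -0.65 (permutation p = 0.0169, adjusted p = 0.102) and rho = -0.52 (permutation p = 0.0756), with r = -0.72 without ZT2 and ZT38. Cxcl12 and Cxcr4 gave r = -0.61 (permutation p = 0.0365, adjusted p = 0.146) and rho = -0.33 (permutation p = 0.273). Without ZT10 and ZT14 that r was -0.21, so the relation rests on those pools. The other 9 pairs had r between 0.09 and 0.51, and Ccl17 and Ccl22 with their receptor Ccr4 gave 0.19 and 0.11.

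Of 39 other genes of chemokine signalling and handling that were measured, 0 were called for the wave, against 0.141% of all genes tested. At an unadjusted p under 0.05 stood 7.69% of the 39, against 9.54% of all genes tested. These were Cmklr1, the chemerin receptor, Ppbp, a platelet chemokine, and Vav1, an exchange factor of leukocytes. Their waves were 1.25-, 1.27- and 1.33-fold, with fitted peaks at 10.2, 2.3 and 10.2 h. Of the 39 genes, 19 were higher (48.7%, against 55.6% of all genes tested) and 20 lower in the dark.

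The promoters of the chemokine genes were searched for the letters of motifs tied to the clock and to inflammatory signalling, in windows of 250 bases before to 50 after the start (RefSeq, GRCm38.p6), 44 windows of 42 chemokine genes. The E-box CACGTG of the core clock factors was in 2 of these (4.55%), those of Cxcl3 and Xcr1, against 7.15% of 32851 promoters. The D-box TTATGTAA was in 1 (2.27%), that of Ccr6, against 0.938%, and TTACGTAA in 0, against 0.119%. The kappaB motif (GGGA, any 2 bases, then TTCC), a form bound by NF-kappaB, was in 6 (13.6%), those of Ccl1, Ccr3, Cxcl1, Cxcl2, Cxcl3 and Cxcl10, against 1.47% of all. Both strands were searched. A match is a match of letters only.
Shown are 2 genes of small wave p, Ackr1 on the minus strand at chr1:173333454-173333753 and Ccl22 on the plus strand at chr8:94745434-94745733, neither of which held any of the motifs in this window:
Ackr1: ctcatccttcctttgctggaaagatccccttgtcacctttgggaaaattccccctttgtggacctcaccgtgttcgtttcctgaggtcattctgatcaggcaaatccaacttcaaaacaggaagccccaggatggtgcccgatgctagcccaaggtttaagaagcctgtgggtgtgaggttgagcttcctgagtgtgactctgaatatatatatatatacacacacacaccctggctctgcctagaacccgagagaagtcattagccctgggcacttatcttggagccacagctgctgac
Ccl22: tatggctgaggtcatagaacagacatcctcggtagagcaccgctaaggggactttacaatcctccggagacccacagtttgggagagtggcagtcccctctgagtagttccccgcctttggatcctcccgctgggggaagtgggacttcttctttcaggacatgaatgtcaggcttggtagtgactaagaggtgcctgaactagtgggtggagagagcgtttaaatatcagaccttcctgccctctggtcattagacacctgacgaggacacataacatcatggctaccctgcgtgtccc
and 3 ligands, Cxcl1 on the plus strand at chr5:90890995-90891294, Cxcl3 on the plus strand at chr5:90785851-90786150 and Cxcl10 on the minus strand at chr5:92348840-92349139, which did. In these, capitals mark the matches. Cxcl3 has the E-box 155 bases before its start and a pair of overlapping kappaB matches 73 bases before it, Cxcl1 a pair of overlapping kappaB matches 71 bases before its start, and Cxcl10 a kappaB match 159 bases before it:
Cxcl1: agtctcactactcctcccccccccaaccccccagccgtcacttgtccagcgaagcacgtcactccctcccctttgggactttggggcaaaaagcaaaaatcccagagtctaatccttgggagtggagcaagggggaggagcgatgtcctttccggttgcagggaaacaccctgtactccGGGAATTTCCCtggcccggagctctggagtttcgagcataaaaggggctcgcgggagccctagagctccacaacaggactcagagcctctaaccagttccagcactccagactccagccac
Cxcl3: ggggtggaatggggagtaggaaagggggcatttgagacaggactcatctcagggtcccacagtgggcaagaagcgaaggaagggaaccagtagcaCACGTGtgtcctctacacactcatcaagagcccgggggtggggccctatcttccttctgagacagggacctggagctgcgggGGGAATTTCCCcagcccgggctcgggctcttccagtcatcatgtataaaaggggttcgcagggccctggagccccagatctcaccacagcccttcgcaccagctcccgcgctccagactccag
Cxcl10: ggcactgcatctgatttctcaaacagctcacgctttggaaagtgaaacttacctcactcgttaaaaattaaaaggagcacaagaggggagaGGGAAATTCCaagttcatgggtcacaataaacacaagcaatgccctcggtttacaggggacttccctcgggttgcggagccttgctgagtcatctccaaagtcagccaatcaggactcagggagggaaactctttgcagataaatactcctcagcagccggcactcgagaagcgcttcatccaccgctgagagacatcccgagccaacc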

How the data were processed

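RNA of whole back skin, in 13 pools of 3 mice, was hybridised to Affymetrix whole-transcript arrays with a single dye, per the labels' protocols. The values are linear probe intensity, used as deposited by the authors. Affymetrix Expression Console 1.1.1 and PLIER 2.0 are named in the submitters' processing notes with no role given. How arrays were scaled, and the genome build, are not given in the sources used here.

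Of 35557 probes, 21789 had 1 symbol, 1621 several and 12147 none. The 7 probes with several symbols that include a chemokine name (Ccl21 and Ccl27 types) were not used, so these ligands are not among the 56 genes. Pf4 and Ppbp, whose symbols do not match the rule, were counted with the other signalling genes. Values were converted to log2(intensity + 16), so folds understate changes of dim genes, and a floor at the 25th percentile of the probes' means left 16322 genes with a symbol of their own, each by its highest probe. limma 3.58.1 (R 4.3.3) fitted a 24 h cosine and sine with linear time, and dark against light with linear time, with Benjamini-Hochberg adjustment over all genes and calls at an adjusted p under 0.05. The scripts were tested on simulated data. Correlations used 100000 permutations, two-sided (scipy 1.17.1). Peak hours count from lights on, and dark and light pools are described by their lowest, median and highest values. P-values rest on the spread between pools, not between single mice, and the number of arrays limits the precision.

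Pool values are given for any gene called, the 6 ligands and 6 receptors of highest mean and the 6 others of smallest wave p. Of other signalling genes, those called or the 3 of smallest wave p are named. Genes named beyond this, such as Cxcl5, Xcl1 and Cx3cl1, and the motifs and promoters shown, were chosen after their values were seen. The members and lists were chosen with earlier results of these data known. The alternatives tried were median centring, quantile normalization, other pseudocounts (1 and 64), other filters, all probes, an intensity trend, other time terms and leaving out each pool. Figures were drawn with matplotlib 3.10.9.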

Additional observations from a re-analysis of the deposited data

Results flagged for a closer look

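Among 36 groups of values searched for a single pool far from the others, of which chance gives about 1 in 20, 2 stood out. Cxcl12 in the 6 dark pools had its lowest value, 1633 at ZT14, separated from the next by 0.645 of the group's range. Ackr3 in the 6 dark pools had its lowest value, 739 at ZT18, separated by 0.654 of the range.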

How the results depend on the processing

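No chemokine gene was called for the wave, for dark against light or for drift under any of the alternatives run. Directions were compared only for genes with an unadjusted p under 0.05 for dark against light or drift, and 0 of these reversed. Other genes did change direction, since the 33 of 44 chemokine genes higher in the dark became 30 with quantile normalization. Of 832 values from limma under alternatives, 804 kept their side of the threshold, and direction where compared, or stayed within 1.5 times a count. The other 28 were counts that moved further. Over all genes, the 23 wave calls were 15 with no filter and 9 with time of day as a factor of 6 levels, and 13 to 30 when a pool was left out. The 1 dark against light call was 0 with quantile normalization, a pseudocount of 64, no filter or an intensity trend with robust prior, 2 with a 50th percentile filter or no linear time, and 0 to 4 when a pool was left out. The count of chemokine genes higher in the dark was 14 of 22 with a 50th percentile filter (63.6%, against 45.3% of all genes), which leaves fewer genes to test. It was 32 to 34 of 44 when a pool was left out, against 51.9% to 59.1% of all genes. The 9 of 44 chemokine genes with an unadjusted wave p under 0.05 were 6 of 56 with no filter (10.7%, against 9.05% of all genes). They were 6 of 44 with an intensity trend (13.6%, against 9.19%) and 3 of 22 with a 50th percentile filter (13.6%, against 9.94%). With the day as a factor they were 10 of 44 (22.7%, against 10.6%). Leaving out a pool gave 4 to 9. The count was 4 without ZT14 (9.09%, against 7.199% of all genes) and 5 without ZT26 or ZT42 (11.4%, against 7.47% and 8.21%). The 0 pairs passing became 1 with quantile normalization and 1 with median centring, Cx3cl1 and Cx3cr1 in both (r = -0.74, permutation adjusted p = 0.0484 and 0.0478), and 0 to 1 when a pool was left out. The cause of these changes was not tested. The labels carry no replicate numbers that tie pools to each other, so pools were matched only by hour of the day and by day. With the day as a block in place of linear time, 18 genes were called for the wave and 1 for dark against light, with 0 chemokine genes in either.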
